A study of Mus musculus with 29 samples.

Results

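The 10 genes followed here serve antigen presentation to CD4+ T cells, namely the mouse MHC class II genes H2-Aa, H2-Ab1, H2-Eb1, H2-Eb2, H2-DMa, H2-DMb1, H2-DMb2 and H2-Oa, the invariant chain gene Cd74, and Ciita. They were chosen by symbol, with earlier results of these data known, and all 10 were found among the 24421 genes of the count table. All 10 also passed the low-count filter in each comparison. RNA-seq libraries came from 29 female C57BL/6J mice, which were 5 to 6 weeks old when divided into groups. They had received YTN16 mouse gastric cancer cells intraperitoneally as a model of peritoneal dissemination. On day 21 there were 5 mice given PBS (untreated) and 5 given anti-PD1 together with anti-CTLA4 (dual ICI). On day 35 there were 5 untreated mice, 5 given anti-PD1, 4 given anti-CTLA4 and 5 given dual ICI. Injections were intraperitoneal, with 10 mg/kg of anti-PD1 or 5 mg/kg of anti-CTLA4 or both, on days 5, 8 and 12, and for the mice kept to day 35 also on days 21 and 28. The study's text gives mice 1 and 5 of the day 35 dual ICI group as uncured and mice 2, 3 and 4 as cured. The labels give no outcome, so the split takes the mouse number of the text as the replicate number of the label, and the comparison of all 5 mice is given beside it. The libraries were labelled as tumor tissue, but the methods describe stripped peritoneum with or without nodules, so a library could mix abdominal wall, infiltrating cells and, where nodules were present, tumor. Each library came from a separate mouse.

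MHC class II molecules are pairs of an alpha and a beta chain that show peptides from endosomes to CD4+ T cells. The invariant chain fills their groove until H2-DM exchanges its remnant for a peptide, and H2-O holds H2-DM back. Ciita, the class II transactivator, does not bind DNA itself but sits on the complex of RFX, CREB and NF-Y factors at the X and Y boxes of class II promoters, and interferon gamma induces it. Dendritic cells, B cells and activated macrophages are the main sources of class II molecules, and C57BL/6 mice carry a broken H2-Ea gene and so display no E molecule although H2-Eb1 is transcribed.

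A promoter stretch with a match to the Y box is shown for 4 of the members whose values carry the day 21 result. Each stretch is 62 bases long, read 5′ to 3′ on the gene's strand (GRCm38.p6, from the RefSeq promoter table), and ends with the Y box core in capitals. The letters TGATTGG were searched for the Y box core on both strands. For the X box core, 11 letters were searched on both strands, those in capitals in the middle of the H2-Eb1 stretch with any base allowed at positions 3, 7 and 8, and a match is in capitals too. The 2 patterns share no bases in these stretches. The H2-Eb1 stretch lies at chr17:34305751-34305812 (+), the H2-Eb2 stretch at chr17:34325518-34325579 (+), the H2-Aa stretch at chr17:34287867-34287928 (-) and the H2-DMb2 stretch at chr17:34145102-34145163 (+). None of the 4 overlaps an annotated exon.
H2-Eb1: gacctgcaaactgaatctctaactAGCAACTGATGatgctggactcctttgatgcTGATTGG
H2-Eb2: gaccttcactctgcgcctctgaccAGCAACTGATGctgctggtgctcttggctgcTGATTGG
H2-Aa: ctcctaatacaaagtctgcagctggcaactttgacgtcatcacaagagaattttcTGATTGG
H2-DMb2: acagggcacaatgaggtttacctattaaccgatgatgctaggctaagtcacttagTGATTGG

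H2-Eb1 and H2-Eb2 hold the same 11 letters of the X box core, its first base 31 bases ahead of that of the Y box core in each. The H2-Aa and H2-DMb2 stretches hold no match to the X box core. The search letters were chosen with these sequences in view, so matches among the members are a description. Of the 7 members with a promoter window of 300 bases in the table, 6 held the Y box core and 3 held both cores, against 7.82% and 0.0731% of all 32851 windows. H2-DMa was the member with a window but neither match, and H2-Ab1, Cd74 and Ciita were not listed. The X box core alone was found in 0.895% of all windows.

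The chain genes, the H2-DM genes and H2-Oa lie together on chromosome 17 (H2-Oa starts at 34092340 and H2-Eb2 ends at 34341412), Cd74 lies on chromosome 18 and Ciita on chromosome 16. Library totals ran from 25989217 to 31219650 counts. On day 21 every dual ICI library (29113101 to 31219650 counts) was larger than every untreated library (27581158 to 28681432 counts). Levels are given as CPM, a count relative to the TMM-scaled library total, which adjusts for such differences. Some libraries stood apart. Summed over 13 gastric epithelium markers, anti-PD1 mouse 5 had 62.7 CPM against 2887 to 3756 CPM in the other anti-PD1 mice. The study's text counts a cured mouse in that group without giving its number. Among untreated mice on day 35, mouse 2 had the lowest gastric epithelium sum (1153 CPM) and the highest sum over 12 skeletal muscle markers (235011 CPM). In the cured mice the gastric epithelium sum was 53.5 ± 40.1 CPM (SD, n = 3) and Gkn1, Gkn2, Tff1 and Muc5ac were at 0 counts, against a sum of 2856 ± 1026 CPM (SD, n = 5) in untreated mice of the same day, and skeletal muscle markers summed to 278670 CPM in cured against 105261 CPM in untreated mice.

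Per length, the genes spanned over 3 orders of magnitude. As the mean over the 29 mice of CPM divided by exon length in kilobases (RPKM), Cd74 stood at 841, H2-Eb1 at 239, H2-Ab1 at 166 and H2-Aa at 115. The H2-DM genes were lower, with 29.0 RPKM for H2-DMb1, 13.5 RPKM for H2-DMa and 4.31 RPKM for H2-DMb2. Ciita measured 3.80 RPKM, H2-Eb2 0.578 RPKM and H2-Oa 0.548 RPKM. Cd74, H2-Eb1, H2-Ab1 and H2-Aa thus lay above Ciita and H2-Oa, while H2-Eb2 lay below Ciita. Cd74 took 43.6% to 55.1% of all counts of the 10 genes in each mouse. H2-Ob, the beta partner of H2-Oa, was near it per length (0.470 RPKM against 0.491 RPKM in untreated mice on day 21), and the H2-Ea pseudogene had 1 count in 1 day 21 dual ICI mouse and 2 counts in 1 uncured mouse and none elsewhere.

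**Figure D1:**
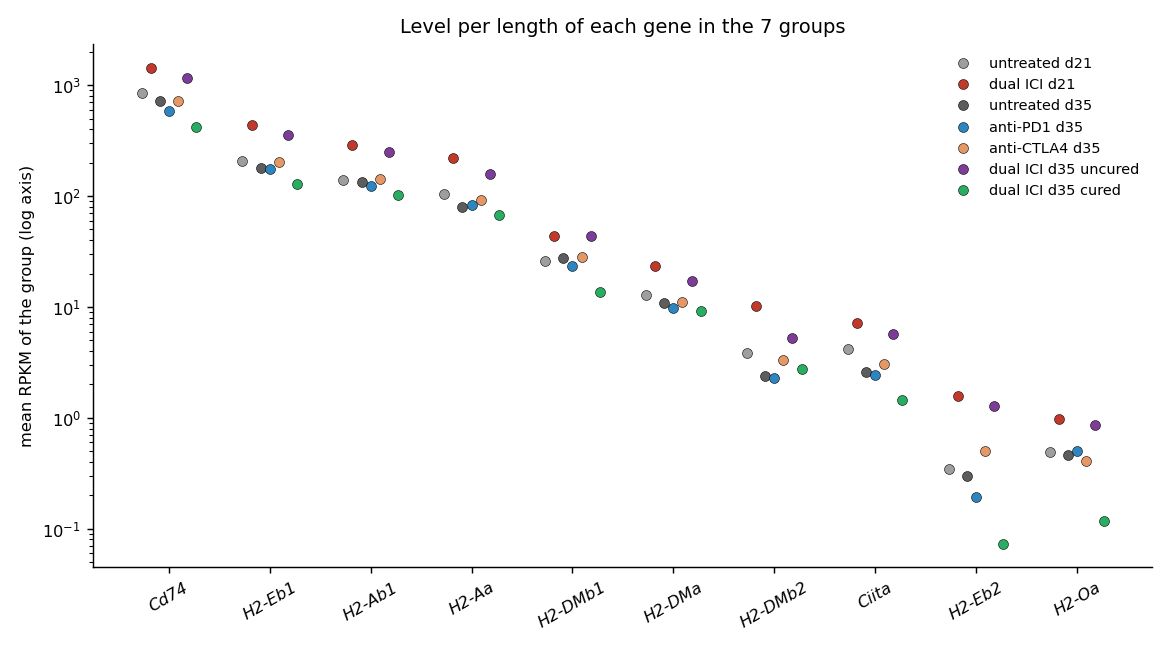
Mean RPKM (log axis) of each gene in the 7 groups by treatment, day and outcome, 1 point per group. Cd74 is highest in every group, and the points of H2-Eb2 and H2-Oa lie lowest, with the cured mice at 0.0734 RPKM and 0.118 RPKM.

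As a share of all counts in a library, with no scaling, the 10 genes made up 0.272% ± 0.0446 (SD, n = 5) in untreated and 0.511% ± 0.118 (SD, n = 5) in dual ICI mice on day 21. On day 35 untreated mice had a share of 0.246% ± 0.107 (SD, n = 5). Mice on anti-CTLA4 had 0.264% ± 0.0614 (SD, n = 4), and mice on anti-PD1 0.215% ± 0.0675 (SD, n = 5). The uncured mice had 0.543% and 0.451%, and the cured mice 0.107%, 0.107% and 0.114%. Both uncured mice were above every other mouse of day 35, and the cured mice were below each of them except untreated mouse 2 (0.0980%). By group mean CPM, the day 21 dual ICI mice were highest for 9 of the 10 genes, and the cured mice lowest for 9. The exceptions were H2-DMb1, whose mean was 73.5 CPM in uncured and 73.0 CPM in day 21 dual ICI mice with overlapping ranges, and H2-DMb2, which was lowest with anti-PD1. The day 21 dual ICI and the uncured mice did not overlap for H2-Aa, H2-Eb1, H2-DMa and H2-DMb2 and did for the other 6 genes. These groups also differ in day, and the share of all genes separate between them is not given here. The count therefore only describes the members. In the order of the means, neighbouring groups given PBS or a single antibody overlapped for each gene. The cured mice were separate from the next group above them, a monotherapy group, for H2-DMb1, H2-Oa, Cd74 and Ciita. Shares of all genes are not given for cured against monotherapy mice either.

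**Figure D2:**
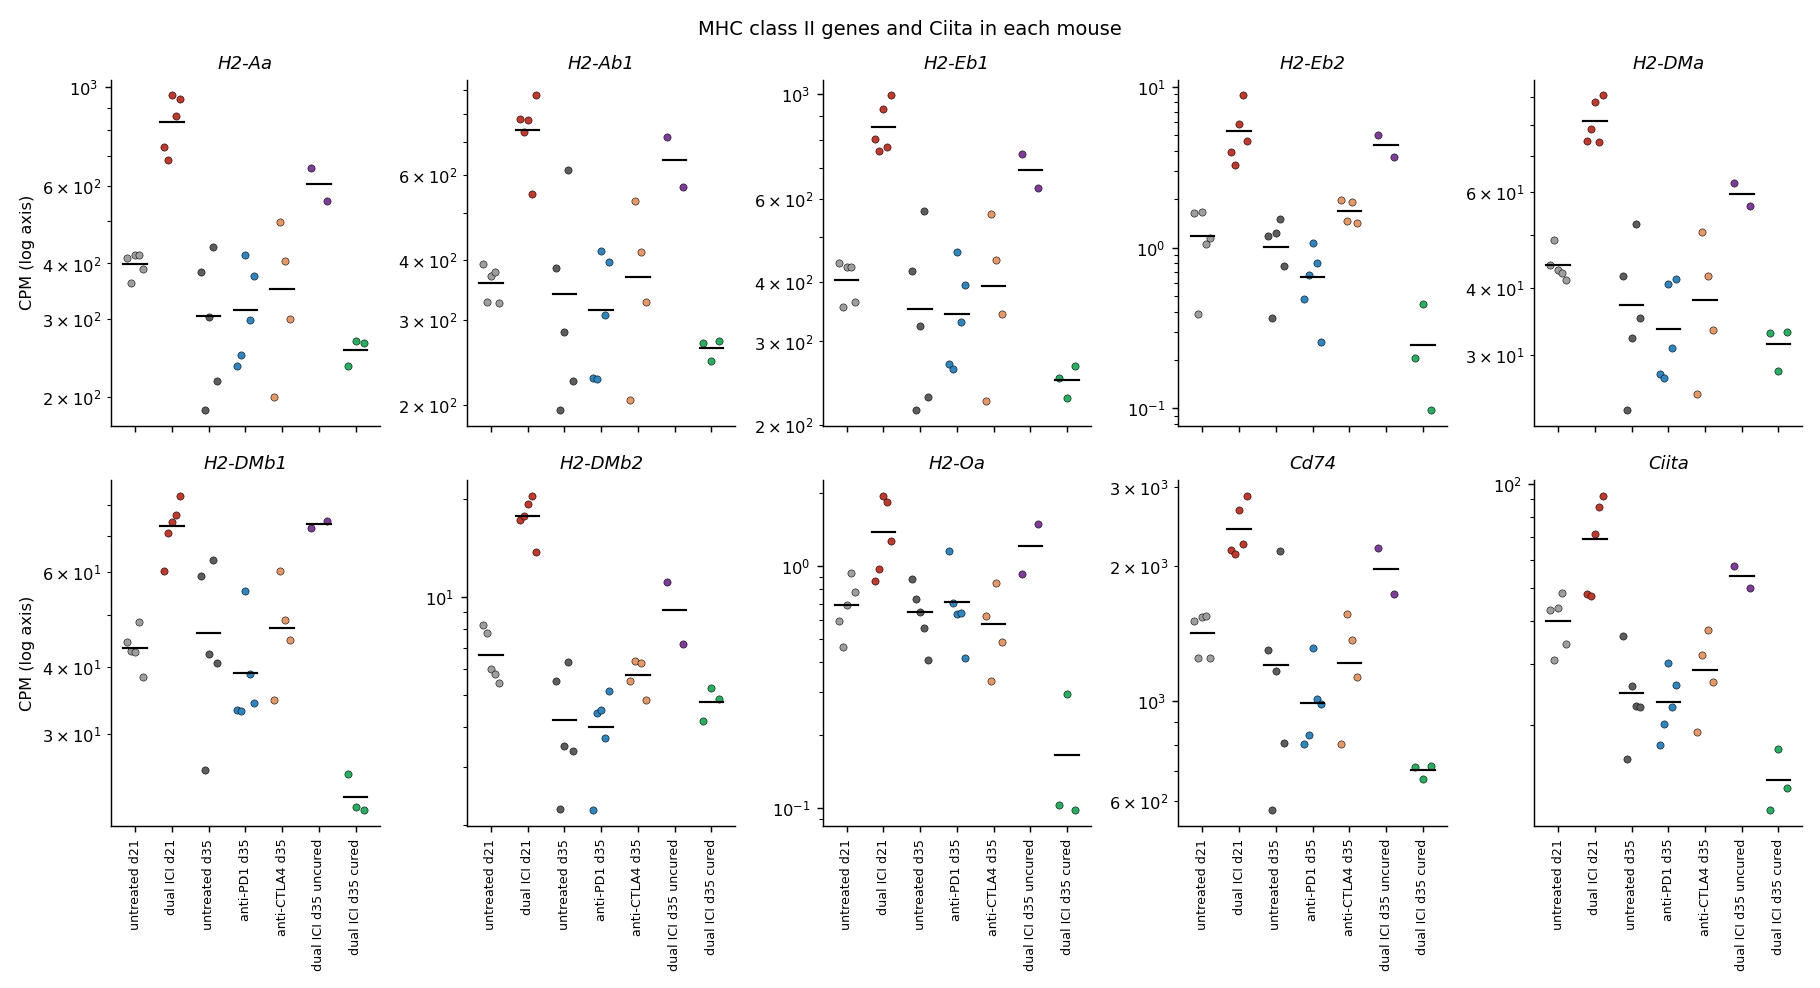
CPM (log axis) of each gene in each mouse, with 1 point per mouse and a bar at the group mean. On day 21 the dual ICI points lie above all untreated points for 8 of the 10 genes, against 1.90% of all genes tested. On day 35 the uncured mice lie above the cured mice for all 10, against 43.3% of all genes tested.

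On day 21, dual ICI treatment was compared with PBS. The alpha and beta chain genes and the H2-DM genes were higher in dual ICI mice, most of them about 2-fold, whereas Cd74, Ciita and H2-Oa did not pass. In these bulk libraries, more cells of a type and more RNA per cell cannot be told apart. H2-Eb1, a beta chain gene, measured 441, 355, 432, 432 and 364 CPM in untreated mice 1 to 5. In dual ICI mice 1 to 5 it measured 806, 758, 933, 773 and 995 CPM. The lowest dual ICI mouse was well above the highest untreated mouse, and the difference was 1.08 on the log2 scale (SE 0.14, edgeR adjusted p = 0.0119). H2-Aa, the alpha chain of the A molecule, went from 400 ± 24.4 to 836 ± 123 CPM (SD, n = 5 each), a log2 difference of 1.07 (SE 0.14, edgeR adjusted p = 0.0120). Its partner H2-Ab1 went from 358 ± 30.6 to 744 ± 121 CPM (SD, n = 5 each), a log2 difference of 1.06 (SE 0.15, edgeR adjusted p = 0.0151). The groups did not overlap for either of these genes.

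H2-Eb2, a second beta chain gene next to H2-Eb1, had the largest difference of the members. It measured 1.64, 0.387, 1.67, 1.06 and 1.15 CPM in untreated mice and 3.92, 3.24, 5.85, 8.83 and 4.61 CPM in dual ICI mice. The groups did not overlap, with as few as 10 counts in untreated mouse 2 and as many as 330 counts in dual ICI mouse 4, and the log2 difference was 2.17 (SE 0.39, edgeR adjusted p = 0.0353). H2-Eb2 resembles H2-Eb1, as H2-DMb2 resembles H2-DMb1, so reads may have been shared within each pair.

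The peptide-exchange genes rose as well. H2-DMb2 measured 8.21, 7.74, 6.02, 5.81 and 5.44 CPM in untreated and 17.3, 17.8, 19.3, 20.5 and 13.8 CPM in dual ICI mice. The groups were widely separate, with a log2 difference of 1.42 (SE 0.16, edgeR adjusted p = 0.00681). H2-DMa, the alpha chain of H2-DM, went from 44.0 ± 2.91 to 81.4 ± 7.65 CPM (SD, n = 5 each), a log2 difference of 0.89 (SE 0.10, edgeR adjusted p = 0.00681), and ranked 2 among the 15503 genes tested when ordered by p. H2-DMb1, its other beta chain, went from 43.3 ± 3.63 to 73.0 ± 8.34 CPM (SD, n = 5 each), a log2 difference of 0.76 (SE 0.11, edgeR adjusted p = 0.0176). The exons of H2-DMa share 360 bases with Brd2 on the other strand, and whether strand was used in counting is not given in the sources used here.

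The remaining genes did not pass. Cd74 measured 1509, 1246, 1536, 1543 and 1250 CPM in untreated and 2168, 2125, 2664, 2231 and 2860 CPM in dual ICI mice. Its groups did not overlap, yet its log2 difference of 0.77 (SE 0.17) had an edgeR adjusted p of 0.0673. Ciita measured 43.2, 30.8, 43.6, 48.4 and 34.4 CPM in untreated and 48.0, 47.4, 71.6, 85.7 and 92.2 CPM in dual ICI mice. Dual ICI mice 1 and 2 lay within the untreated range and the other 3 above it, for a log2 difference of 0.79 (SE 0.21, edgeR adjusted p = 0.153). H2-Oa, the alpha chain of the H2-DM inhibitor, had 12 to 30 counts per untreated and 21 to 69 counts per dual ICI library, with a log2 difference of 1.01 (SE 0.30, edgeR adjusted p = 0.206).

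In all, 7 of the 10 genes were called higher, against 0.471% of the 15503 genes tested (0.574% in either direction), and for 8 of the 10 every dual ICI mouse was above every untreated mouse, against 1.90% of all genes. For none was every dual ICI mouse below every untreated mouse, against 1.33% of all genes, and 0.103% of all genes were called lower. The median log2 difference was 1.03 over the members and 0.02 over all genes tested. The count of called members fell to 4 without dual ICI mouse 3, to 3 without untreated mouse 1 and to 2 without untreated mouse 5, and it was 6 in 4 of the other 7 fits with a mouse left out. H2-Eb2 lost its call in 7 of the 10 fits (edgeR adjusted p up to 0.118), among them those 4, while the log2 differences of the 7 genes moved little (0.70 for H2-DMb1 to 2.32 for H2-Eb2 at the extremes). H2-DMa and H2-DMb2 passed with each mouse left out in turn. In one fit of all 29 libraries, which share one estimate of the spread, 1 of the 10 (H2-DMb2) was called, and DESeq2 called 9 (all but H2-Oa).

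**Figure D3:**
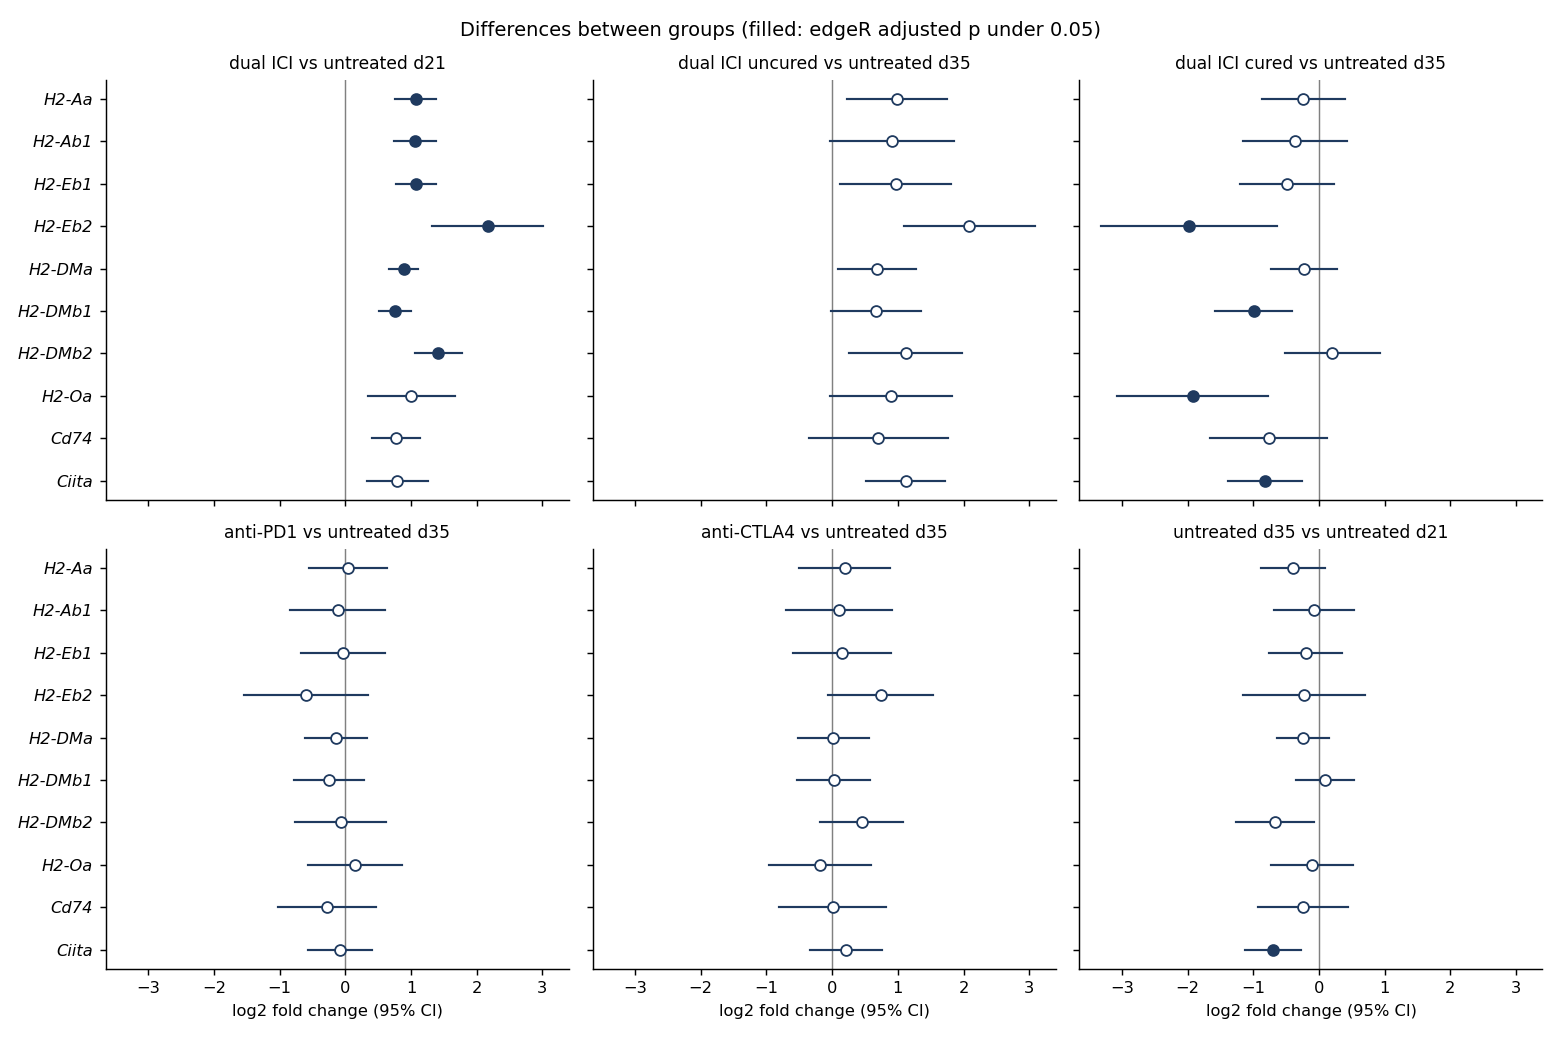
Log2 fold change of each gene with its 95% confidence interval (edgeR) in 6 comparisons, with filled points for an adjusted p under 0.05. All 7 filled points of day 21 lie to the right of 0, the monotherapy panels have none, and the intervals of the 2 uncured mice are wide.

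On day 35, the same comparison by label set all 5 dual ICI mice against 5 untreated mice. None of the 10 genes passed, nor did any of the 15588 genes tested (0% called by edgeR, with 1071 genes at an unadjusted p under 0.05 and 46 called by DESeq2). H2-Eb1 measured 423, 215, 324, 566 and 229 CPM in untreated mice 1 to 5. In dual ICI mice 1 to 5, taken by number, it measured 748, 251, 227, 266 and 633 CPM. Mice 1 and 5 were above every untreated mouse and mice 2 to 4 within the untreated range, and the log2 difference over all 5 was 0.27 with a 95% interval of -0.65 to 1.19. Without untreated mouse 2 it was 0.14, and none of the 10 was called. The groups overlapped for all 10 genes, where 0.757% of all genes were separate upwards and 0.436% downwards. Over the members the median log2 difference was 0.27, and over all genes -0.02.

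The monotherapies were each compared with the same untreated mice of day 35. With anti-PD1, none of the 10 genes passed, nor did any of 15640 genes (0% called, with 205 at an unadjusted p under 0.05 and 0 called by DESeq2). H2-Eb1 measured 269, 262, 464, 329 and 395 CPM in anti-PD1 mice, all within the untreated range, with a log2 difference of -0.03 (95% interval -0.67 to 0.61). The widest departure was that of H2-Eb2, at -0.60 (95% interval -1.55 to 0.35). Without anti-PD1 mouse 5 the values were -0.10 for H2-Eb1 and -0.43 for H2-Eb2, and again none was called. The groups overlapped for all 10 genes, where 0.0895% of all genes were separate upwards and 0.217% downwards. With anti-CTLA4, none of the 10 passed, nor did any of 15781 genes (0% called, with 128 at an unadjusted p under 0.05 and 0 called by DESeq2). H2-Eb2 measured 1.98, 1.46, 1.92 and 1.42 CPM in anti-CTLA4 mice against 1.17, 0.365, 1.23, 1.51 and 0.763 CPM in untreated mice. The ranges overlapped, and the log2 difference was 0.74 (95% interval -0.06 to 1.53). The groups again overlapped for all 10 genes, where 0.171% of all genes were separate upwards and 0.342% downwards. The 95% intervals of H2-Aa, H2-Ab1 and H2-Eb1 reached from -0.84 to 0.91 under the monotherapies. The monotherapy differences were not tested against the dual ICI differences of day 21. Without untreated mouse 2 none was called either, and H2-Eb1 differed by -0.16 with anti-PD1 and 0.02 with anti-CTLA4.

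The 2 uncured mice were then set against the 5 untreated mice of day 35. All 10 genes were higher in the mean, but none passed over 16156 genes (0% called by edgeR, with 787 genes at an unadjusted p under 0.05). H2-Eb2 measured 4.99 and 3.65 CPM in uncured mice, above the untreated maximum of 1.51 CPM. Its log2 difference was 2.09 (SE 0.44, edgeR adjusted p = 0.734), and it was 1 of 17 genes called by DESeq2 (adjusted p = 0.0241). Ciita measured 57.8 and 50.02 CPM, also above the untreated maximum of 36.3 CPM, with a log2 difference of 1.12 (SE 0.26, edgeR adjusted p = 0.734). H2-DMb2 differed by 1.12, H2-Aa by 0.98, H2-Eb1 by 0.97, H2-Ab1 by 0.91 and H2-Oa by 0.90 on the log2 scale, and Cd74, H2-DMa and H2-DMb1 by 0.70, 0.68 and 0.67, none of them called. For 8 of the 10 genes both uncured mice were above all untreated mice, against 9.19% of all genes (8.39% in the other direction). The exceptions were H2-Ab1 and Cd74, for which untreated mouse 4 reached 615 CPM and 2160 CPM. The members' median log2 difference was 0.94 and that of all genes -0.01. Among cell type markers the median was -1.14 for skeletal muscle, -1.11 for adipocyte, 1.14 for T cell and 0.46 for macrophage markers. It was 0.64 for dendritic cell, 0.60 for B cell and 0.64 for leukocyte markers. For gastric epithelium, fibroblast and mesothelium markers it was 0.30, 0.24 and -0.67, and none of the markers was called. The part of these markers' tissues and cells was not tested. Without untreated mouse 2 the differences were 1.89 for H2-Eb2 and 1.00 for Ciita, with none called.

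The 3 cured mice were likewise set against the untreated mice of day 35, and H2-DMb1, Ciita, H2-Oa and H2-Eb2 were called lower. H2-DMb1 measured 25.3, 21.95 and 21.7 CPM in cured mice against 58.9, 25.7, 42.2, 63.2 and 40.6 CPM in untreated mice. All cured mice were lower, with a log2 difference of -0.99 (SE 0.26, edgeR adjusted p = 0.0136). Ciita measured 11.3, 17.1 and 13.2 CPM against 36.3, 16.0, 26.0, 22.7 and 22.6 CPM. Cured mouse 3 was above untreated mouse 2, the others below all untreated mice, and the log2 difference was -0.82 (SE 0.25, edgeR adjusted p = 0.0262). H2-Oa had 2, 6 and 2 counts and H2-Eb2 4, 9 and 2 counts in the cured libraries, so their log2 differences of -1.92 (edgeR adjusted p = 0.0144) and -1.98 (edgeR adjusted p = 0.0240) rest on few reads.

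The remaining members did not pass in that comparison. Cd74 measured 715, 672 and 716 CPM in cured mice, within the untreated range of 571 to 2160 CPM, with a log2 difference of -0.76 (SE 0.40, edgeR adjusted p = 0.141). H2-Eb1 differed by -0.49, H2-Ab1 by -0.36, H2-Aa by -0.24, H2-DMa by -0.23 and H2-DMb2 by 0.20 on the log2 scale, none of them called. The 4 of 10 genes called lower compare with 26.7% of 15816 genes called lower and 44.7% called in either direction, and the 2 genes with every cured mouse below every untreated mouse with 26.4%. In the other direction 18.0% of all genes were called and 20.9% were separate. The share of members called was thus close to that of genes in general. The count was 1 without cured mouse 2 and 0 without cured mouse 4. It was 5 without untreated mouse 2, with Cd74 added (log2 difference -0.93, edgeR adjusted p = 0.0268). The genes called in all ranged from 4491 to 9388 over the fits with a mouse left out.

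Uncured against cured mice gave a difference for every member. H2-Eb1 measured 748 and 633 CPM in uncured and 251, 227 and 266 CPM in cured mice, a log2 difference of 1.46 (SE 0.11). Ciita differed by 1.94 (SE 0.17), H2-DMb1 by 1.67 (SE 0.10) and Cd74 by 1.47 (SE 0.12) on the log2 scale. The smallest differences were those of H2-DMb2 at 0.92 (SE 0.24, edgeR adjusted p = 0.0075) and H2-DMa at 0.91 (SE 0.11). H2-Eb2 (290 counts in 2 uncured against 15 counts in 3 cured libraries) differed by 4.07, and H2-Oa (84 against 10 counts) by 2.83. All 10 genes were called higher in uncured mice, but so were 36.9% of 15796 genes, with 70.0% called in either direction and 33.1% lower. The groups were separate for all 10 genes, as they were for 43.3% of all genes in that direction and 37.9% in the other. H2-DMb2 lost its call without uncured mouse 1.

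Between the untreated mice of day 21 and day 35, 1 of the 10 genes was called. Ciita went from 40.1 ± 7.25 CPM to 24.7 ± 7.43 CPM (SD, n = 5 each), with a log2 difference of -0.70 (SE 0.20, edgeR adjusted p = 0.0431). Untreated mouse 1 of day 35, at 36.3 CPM, was within the day 21 range and the other 4 below it. Of 15604 genes, 10.8% were called, 4.58% lower and 6.24% higher on day 35. The groups overlapped for all 10 genes, where 6.00% of all genes were separate upwards and 5.18% downwards. Ciita passed without untreated mouse 1 or mouse 2 of day 35, and lost its call in the other 8 fits with a mouse left out, with upper-quartile factors (adjusted p = 0.0554) and in one fit of all 29 libraries (adjusted p = 0.226). The chain genes H2-Aa, H2-Ab1 and H2-Eb1 differed by -0.39, -0.07 and -0.20, none called. Their spread was wider on day 35, with an SD for H2-Eb1 of 146 CPM against 41.6 CPM on day 21. Among cell type markers, leukocyte (median -0.36, 1 of 4), dendritic cell (-0.37, 1 of 9) and fibroblast markers (-0.83, 3 of 5) had genes called lower on day 35. So did skeletal muscle (-0.17, 1 of 12) and adipocyte markers (-0.31, 1 of 6). Gastric epithelium markers had 2 of 10 tested called higher (median 0.92). Macrophage (-0.29), mesothelium (-0.38), B cell (0.17) and T cell markers (0.15) had 0 called. The part of these cell types was not tested. Day 21 and day 35 libraries carry separate library number series, so the day and the series cannot be told apart.

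Whether the dual ICI effect differed between the days was tested as an interaction over the 4 dual ICI and untreated groups. The day 35 dual ICI group pools the 2 uncured and the 3 cured mice. The difference of the effects, day 35 minus day 21, was from -0.53 (Ciita) to -1.27 (H2-Eb2) on the log2 scale over the 10 genes, and none of them passed. Its median was -0.79 over the members and -0.04 over all genes, of which 47.1% had a positive value. Cell type markers had medians of -1.37 for T cell, -0.55 for macrophage and -0.86 for gastric epithelium markers. Dendritic cell and B cell markers had medians of -0.25 and -0.04. Leukocyte, mesothelium and fibroblast markers had medians of -0.55, -0.82 and 0.19. The medians of skeletal muscle and adipocyte markers were 0.81 and 0.84. The part of these cell types was not tested. In the uncured mice alone the differences from untreated mice had a median of 0.94 over the members, beside 1.03 on day 21, and these were not tested against each other. H2-DMa came closest, at -0.70 with an unadjusted p of 0.0288 (edgeR adjusted p = 0.477). None of 16021 genes was called (0% by edgeR, 1648 at an unadjusted p under 0.05, and 20 called by DESeq2).

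Proportions between the genes were compared as ratios of counts, and none of the tests passed after adjustment. Ratios of counts within a library do not depend on how libraries are scaled, and 3 were compared in 7 pairs of groups, 21 tests in all, with exact two-sided permutation tests. The tests of the uncured mice could not pass. Their smallest possible exact permutation p was 0.0952 against untreated and 0.2 against cured mice. In the other pairs it was 0.00794 for 5 against 5 mice, 0.0159 for anti-CTLA4 and 0.0357 for cured against untreated mice. After adjustment over 21 tests, a single test at any of these values does not pass. Passing needed several tests at such values together, so the lack of a pass was largely set by the group sizes. On day 21, H2-Eb2 counts per 1000 H2-Eb1 counts were 3.73, 1.09, 3.87, 2.44 and 3.15 in untreated and 4.87, 4.28, 6.28, 11.4 and 4.63 in dual ICI mice. The groups did not overlap, and the exact permutation p of the log2 difference of 1.14 was 0.00794, the smallest these groups allow (0.111 after adjustment over the 21 tests). In the uncured mice the ratio was 6.67 and 5.77, above all untreated mice of day 35, and in the cured mice it was 0.820, 1.95 and 0.367, with few H2-Eb2 counts behind them.

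H2-DMb2 was also set against H2-DMb1, the other beta chain of H2-DM. On day 35, H2-DMb2 counts per 1000 H2-DMb1 counts were 93.6, 86.9, 82.5, 100.1 and 83.1 in untreated mice. They were 165, 240 and 225 in cured mice, where H2-DMb1 had fallen and H2-DMb2 had not been called. The difference was 1.22 on the log2 scale (exact permutation p = 0.0357, the smallest for 3 against 5 mice, adjusted p = 0.150). The uncured mice had 153 and 96.02 per 1000, overlapping the untreated mice (log2 difference 0.44, exact permutation p = 0.190, adjusted p = 0.280). Over all 5 dual ICI mice of the label the log2 difference was 0.91, with overlap (exact permutation p = 0.0159, adjusted p = 0.111). Anti-CTLA4 mice were also above all untreated mice, at 106 to 160 per 1000 (log2 difference 0.47, exact permutation p = 0.0159, adjusted p = 0.111). On day 21 the ratio went from 120 to 185 per 1000 in untreated to 166 to 286 per 1000 in dual ICI mice, with overlap (log2 difference 0.67, exact permutation p = 0.0238, adjusted p = 0.125). Ciita counts per 1000 counts of H2-Aa, H2-Ab1 and H2-Eb1 together overlapped between groups in each comparison with untreated mice, from 29.5 to 39.4 in untreated and from 20.7 to 39.3 in dual ICI mice on day 21.

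**Figure D4:**
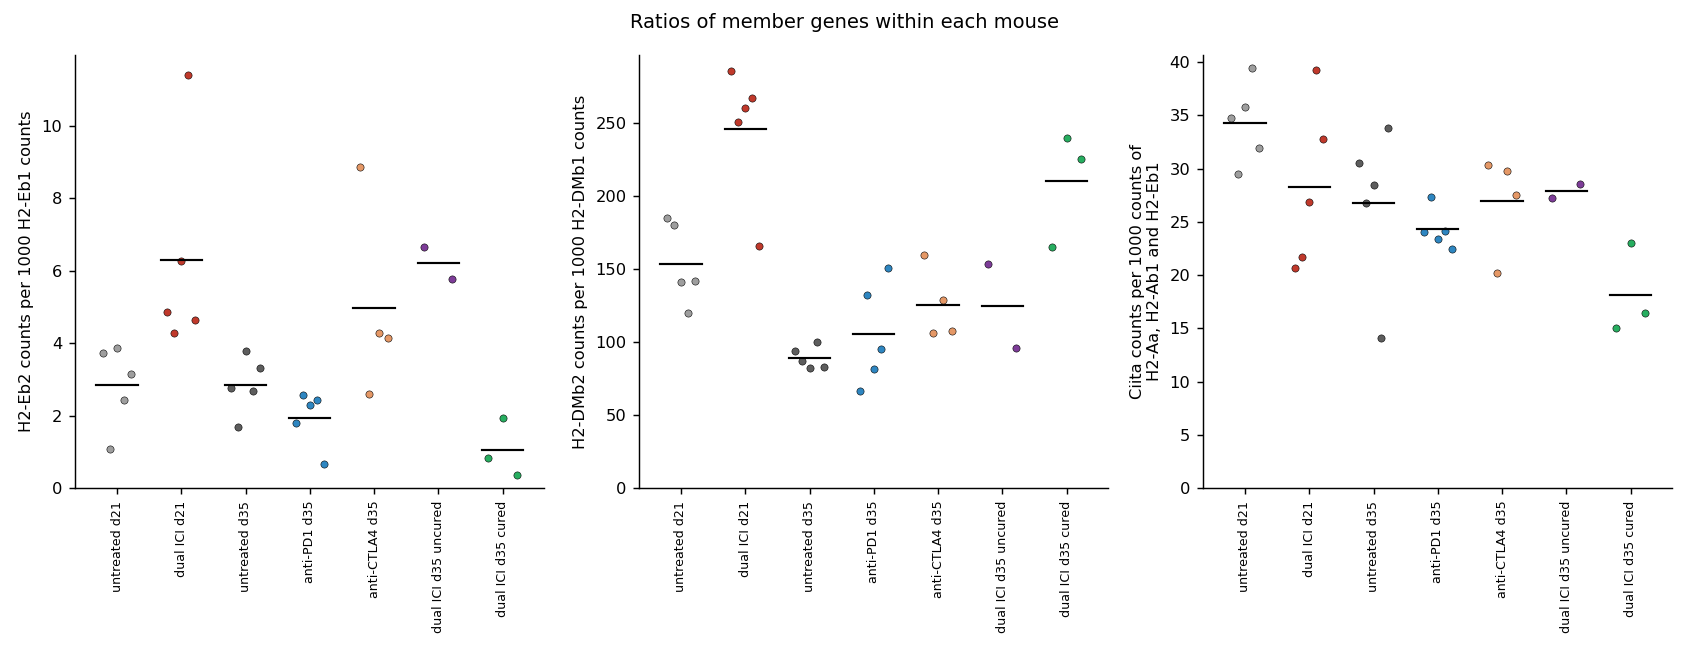
Counts of a gene per 1000 counts of another within each mouse, with 1 point per mouse and a bar at the group mean, on axes that start at 0. H2-Eb2 relative to H2-Eb1 is higher in day 21 dual ICI mice (4.28 to 11.4) than in untreated mice (1.09 to 3.87), and H2-DMb2 relative to H2-DMb1 is higher in cured than in untreated mice of day 35.

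Genes around the pathway were read from 7 lists chosen by their function. On day 21, 1 gene of these lists was called, Btnl2, a butyrophilin-like gene within the class II region, at 2.58 CPM in untreated and 8.48 CPM in dual ICI mice (log2 difference 1.73, SE 0.29, edgeR adjusted p = 0.0296). Of all genes, 0.574% were called in this comparison. The 9 promoter factors (such as Rfx5 and Nfya) had 0 called, with a median log2 difference of 0.01. The 9 genes from interferon gamma to Ciita had 0 called and a median of 0.21. Among them Ifng, the cytokine itself, stood at 37 counts in untreated and 191 counts in dual ICI libraries (log2 difference 2.20, edgeR adjusted p = 0.0539). The 3 repressors of Ciita, the 7 endosomal processing genes, the 3 turnover genes and the 2 class II receptors had 0 called, with medians of 0.47, 0.30, 0.68 and 0.80. The receptor Cd4 differed by 0.95 without overlap (edgeR adjusted p = 0.125).

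In the comparisons on day 35 by label and of uncured with untreated mice, none of the list genes was called. In cured against untreated mice, all 3 repressors of Ciita were lower, with Prdm1 at -1.63 and Tgfb1 at -0.81 on the log2 scale (edgeR adjusted p = 0.00378 and 0.00419) and Il10 at 3 counts in 3 cured against 140 counts in 5 untreated libraries. Both receptors for class II fell, Cd4 by 1.26 and Lag3 by 1.00 on the log2 scale. Of 7 endosomal genes, 3 fell, Ctss (cathepsin S, which trims the invariant chain) by 2.15, Ifi30 (the thiol reductase GILT) by 1.72 and Lgmn (legumain) by 0.96. Of 8 interferon gamma genes tested, Ifngr1 (-1.16), Irf1 (-1.09) and Socs1 (-0.80) were lower and Jak1 (0.51) higher, and of 9 promoter factors Nfya (-0.83) was lower and Nfyc (0.68) higher. The 2 other class II genes tested and the 3 turnover genes had 0 called. These counts stand against 44.7% of all genes called.

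Between uncured and cured mice, 3 of 3 repressors, 2 of 2 receptors, 2 of 3 turnover genes and 1 of 2 other class II genes (Btnl2, 2.97) were higher and none lower, where 36.9% of all genes were called higher and 70.0% in either direction. Of 7 endosomal genes 4 were higher (Ctss by 2.92, Ifi30 by 2.15, Lgmn by 1.18 and Ctsh by 0.96) and Ctsd lower (-0.43). Of 8 interferon gamma genes 6 were higher, among them Irf1 (1.63), Ifngr1 (1.30) and Socs1 (1.21), and Jak1 was lower (-0.49). The 9 promoter factors split, with 4 higher and 4 lower, led by Nfya (1.23) and Kat2b (-1.30). Between the untreated mice of day 21 and day 35, 2 of 8 genes of the interferon gamma list were called lower on day 35, among them Jak1 (-0.54), and the other 6 lists had 0 called, where 4.58% of all genes were called lower and 10.8% in either direction.

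Markers of the cell types that the tissue could hold were summed beside these genes. On day 21 the 4 leukocyte markers summed to 317 ± 29.6 CPM in untreated and 485 ± 85.0 CPM in dual ICI mice (SD, n = 5 each), with Coro1a called higher and Laptm5 most abundant over the 29 mice (as for each most abundant marker named here). The 9 macrophage markers summed to 1118 ± 62.3 CPM and 1618 ± 377 CPM (SD, n = 5 each), with 0 of 9 called and Csf1r most abundant. The 9 dendritic cell markers summed to 54.2 ± 3.17 CPM and 75.1 ± 14.3 CPM (SD, n = 5 each), with 0 of 9 called and Itgax most abundant. T cell markers had 3 of 8 tested called (Cd8b1, Cd8a and Cd3g), with sums of 19.5 and 54.7 CPM, and Cd8a went from 2.79 to 13.8 CPM. Of all genes, 0.471% were called higher and 0.574% in either direction. The 9 B cell markers summed to 5.01 and 6.67 CPM, with 0 of 6 tested called and Cd79b most abundant, and none was at 0 in a whole group. Gastric epithelium markers summed to 1576 and 1679 CPM, with 1 of 9 tested called lower, against 0.103% of all genes. Skeletal muscle markers summed to 59891 to 149939 CPM in untreated and 50983 to 214186 CPM in dual ICI mice, with 0 of 12 called. Per CPM of the macrophage sum, the 3 classical chain genes together came to 0.885 to 1.16 CPM in untreated and 1.21 to 1.79 CPM in dual ICI mice, without overlap. Per CPM of the leukocyte sum they came to 2.87 to 4.19 and 4.15 to 6.76 CPM, with a narrow overlap. Per CPM of the dendritic cell sum they came to 19.9 to 22.2 and 22.7 to 38.4 CPM, without overlap, and per CPM of the B cell sum to 149.7 to 342 and 247 to 480.4 CPM, with overlap. Per CPM of the T cell sum the order was the other way, with 46.5 to 77.4 CPM (median 59.0) in untreated and 27.4 to 69.6 CPM (median 46.4) in dual ICI mice, with overlap. The part of these cell types in the difference was not tested.

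On day 35 the macrophage sum was 1268 and 1439.8 CPM in uncured mice, 730 to 818 CPM in cured mice and 523 to 1291 CPM in untreated mice, with 0 of 9 called between cured and untreated mice and 8 of 9 between uncured and cured mice, against 44.7% and 70.0% of all genes called in these comparisons. T cell markers summed to 43.7 and 46.3 CPM in uncured, 9.55 to 13.6 CPM in cured and 15.8 to 29.0 CPM in untreated mice, and 5 of 8 were lower in cured than in untreated mice, against 26.7% of all genes. Dendritic cell markers summed to 72.9 and 72.2 CPM in uncured, 26.3 to 31.6 CPM in cured and 32.3 to 65.0 CPM in untreated mice. Among these markers Ccr7, Itgax and Flt3 were lower and Siglech higher in cured than in untreated mice. Per CPM of the macrophage sum the 3 chain genes came to 1.67 and 1.22 CPM in uncured, 0.979 to 1.02 CPM in cured and 0.598 to 1.28 CPM in untreated mice. The cured mice and uncured mouse 5 were inside the untreated range, as the cured mice were per CPM of the leukocyte, dendritic cell and B cell sums. Per CPM of the T cell sum they came to 55.5, 77.6 and 63.9 CPM in cured mice 2, 3 and 4 against 37.9 to 55.7 CPM in untreated mice, so cured mice 3 and 4 were above that range. Uncured mice 1 and 5 came to 48.5 and 37.8 CPM, mouse 1 inside that range and mouse 5 just below it. Gastric epithelium markers fell in cured mice (10 of 10 tested, against 26.7% of all genes called lower) and 3 of 12 skeletal muscle markers rose (18.0% of all genes called higher), and the part of this change of tissue was not tested.

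**Figure D5:**
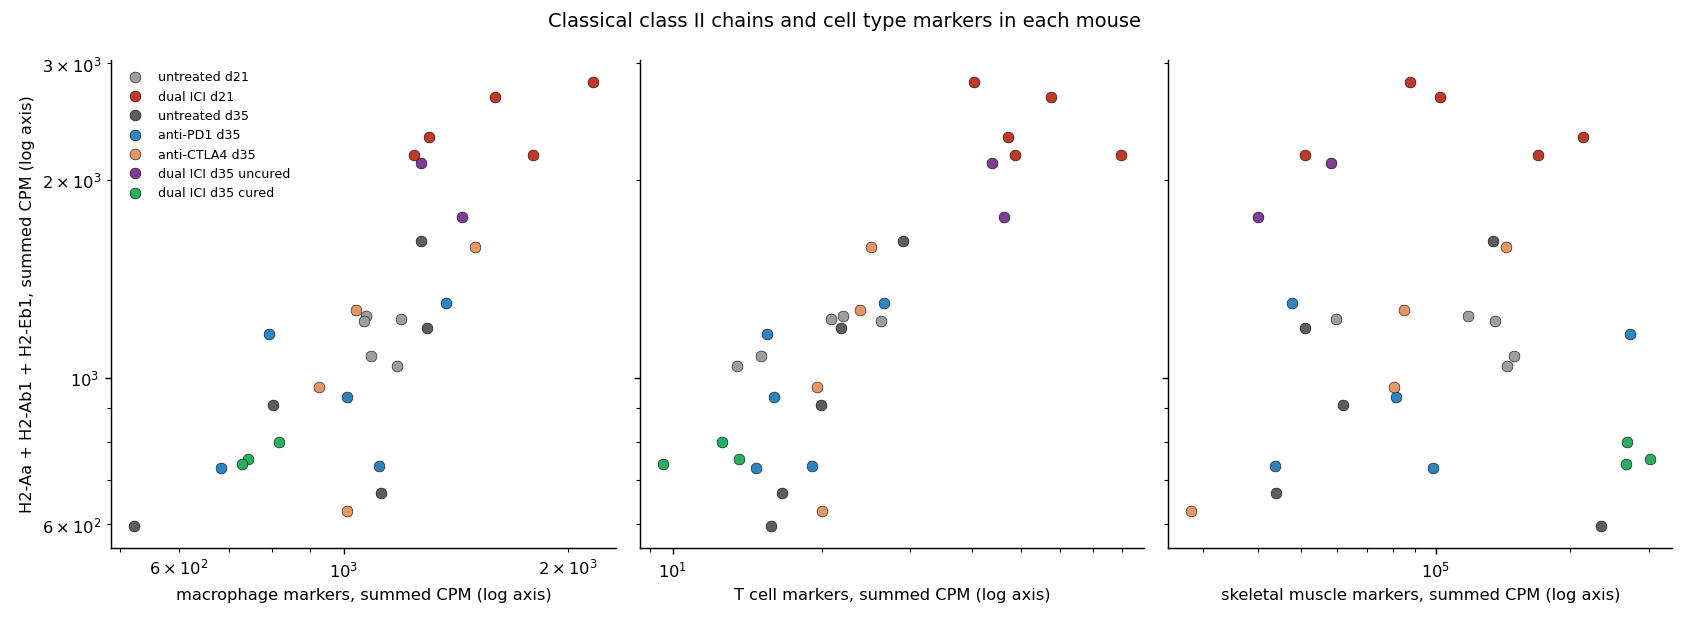
Summed CPM of H2-Aa, H2-Ab1 and H2-Eb1 against summed CPM of macrophage, T cell and skeletal muscle markers (all axes log), 1 point per mouse. The day 21 dual ICI mice (2179 to 2812 CPM of the 3 genes) lie highest at macrophage sums of 1241 to 2160 CPM, and the cured mice lie together at low macrophage and T cell and high skeletal muscle sums.

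Within the 10 genes, log2 CPM was compared between pairs of genes across the 29 mice. Pearson's r was 0.98 between H2-Aa and H2-Eb1 and 0.97 between H2-Eb1 and Cd74, and it stayed at 0.96 and 0.95 after the group means were taken out. Ciita had its highest value with H2-Aa, at r = 0.91 (0.76 within groups). With its other partners r ran from 0.90 (Cd74) down to 0.76 (H2-Oa). Within groups these ran from 0.66 (H2-DMb1) down to 0.28 (H2-Oa), with 0.64 for H2-Eb1 and 0.51 for H2-Ab1. H2-Oa had lower values, with r from 0.46 (H2-DMb2) to 0.78 (H2-Eb2), and with negative values within groups for 7 of its 9 partners. H2-Eb2 also had lower values within groups, at 0.10 with H2-DMa, 0.21 with H2-Ab1 and 0.31 with H2-Eb1. Both genes rest on few counts, down to 2 in a library, and the part of counting error in these values was not tested. The mice share groups and tissue make-up, and these values are descriptions over 29 libraries. Among 14330 other genes, those most like the mean of H2-Aa, H2-Ab1, H2-Eb1 and Cd74 were Rinl (r = 0.93), Slamf8 (0.92), Sp110 (0.91), Cst7, Gpr132 and Clec4a2 (0.90 each), Rac2, Cd40, Clec12a and Sash3 (0.89 to 0.88). Those most like Ciita included Fyb (0.95), Lcp1 (0.94), Klra2 (0.93), Dock10, Itgal, Clec4a3, Il2rg, Il10ra and Slamf7 (0.92 to 0.91). No gene was on both lists of 10.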

How the data were processed

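Per the labels' processing notes, paired-end reads of 150 bases were aligned to mm10 with STAR 2.7.0f and counted with featureCounts 1.6.4, while the study's methods name STAR and HTSeq. Annotation and strand setting are not given in the sources used here. The table deposited by the authors holds counts of reads per gene for each library, as whole numbers and not normalized.

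Counts were tested with edgeR 4.0.16 in R 4.3.3 (TMM factors, low counts filtered by filterByExpr, the quasi-likelihood test glmQLFTest after glmQLFit, Benjamini-Hochberg adjustment over all genes tested, adjusted p under 0.05), with only the groups compared in each fit. A called gene is one that passed. Intervals are at 95%. Members and lists were chosen with earlier results of these data known. Named were all 10 members, up to 4 called genes per pathway list and comparison by size (in cell type lists all or the leading ones), Ifng, Cd4 and H2-Ob on day 21 and H2-Ea-ps beyond that rule, chosen after their values were seen, and the 10 genes most alike, with a mean of at least 1 CPM and a prior count of 2. Some genes that this rule names are not reported here. RPKM used merged exon lengths of GENCODE vM21 (GRCm38), matched by symbol for 95.7% of genes. The 10 cell type lists included mesothelium, adipocyte and fibroblast, which summed to 707, 906 and 9535 CPM in untreated and 601, 559 and 8079 CPM in dual ICI mice on day 21. Ratios used a prior count of 0.5 and scipy 1.17.1. Alternatives were DESeq2 1.42.0, DESeq2 size factors, upper-quartile factors, no filter, at least 10 counts in every library, one fit of 29 libraries, no skeletal muscle genes, the replicate block and leaving out each mouse. The fits were tested on simulated counts with known changes. Library totals of 25989217 to 31219650 counts limit the precision of the lowest genes to a few reads. H2-Oa shares 321 exon bases with BC051537 and Ciita 329 with Dexi, both on the other strand.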

Additional observations from a re-analysis of the deposited data

Results flagged for a closer look

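In 60 checks for a mouse far from the others of its group (6 groups of 4 or 5 mice and the 10 genes), 1 stood out, where chance gives about 5% of groups. H2-DMb1 measured 55.3 CPM in anti-PD1 mouse 3, and the next mouse of that group had 38.8 CPM with a median of 34.2 CPM. Its gap to the next mouse was 0.745 of the group's range, above the limit of 0.710. The same mouse had the highest macrophage sum of its group (1372 CPM) and the highest share of counts in the 10 genes (0.326%), whose part in this value was not tested.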

How the results depend on the processing

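The day 21 counts of calls changed with the model. One fit of all 29 libraries called 1 member and 8 genes, where the comparison by itself called 7 and 89, and DESeq2 called 502 genes. Between the untreated groups, 0 members passed with upper-quartile factors or in one fit of all libraries, and DESeq2 called 3168 genes. DESeq2 called 46 genes for dual ICI on day 35, 17 genes and 1 member for uncured mice, and 20 genes for the interaction. With at least 10 counts in every library, 2 members were called for cured mice, since H2-Eb2 and H2-Oa were then not tested. Cd74 for dual ICI on day 35, 0.0011 on the log2 scale, became -0.0010 with upper-quartile factors and -0.011 with at least 10 counts. No factor moved the median of all genes by more than 0.1. Each factor is set from the bulk of the genes, so this median cannot test the choice of scaling. Apart from the genes that a filter removed, the cause of these changes was not tested. Only 2 uncured mice, few counts of H2-Eb2 and H2-Oa, and the library series that coincides with the day limit what can be detected.

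With a mouse left out in turn, members called on day 21 ranged from 2 to 7 and genes from 6 to 119. For cured mice they ranged from 0 to 5 and from 4491 to 9388, and between the untreated groups from 0 to 1 and from 654 to 4915. Without untreated mouse 2 of day 35 the last reached its highest count. Several small log2 differences, none of them called, changed sign. For dual ICI on day 35 the ranges were -0.0036 to 0.60 (H2-Ab1), -0.027 to 0.51 (H2-Eb1), -0.39 to 0.069 (H2-DMb1), -0.80 to 0.15 (H2-Oa), -0.32 to 0.33 (Cd74) and -0.11 to 0.47 (Ciita). For anti-PD1 they were -0.086 to 0.20 (H2-Aa), -0.26 to 0.21 (H2-Ab1), -0.16 to 0.20 (H2-Eb1), -0.27 to 0.0067 (H2-DMa), -0.22 to 0.12 (H2-DMb2), -0.11 to 0.29 (H2-Oa), -0.46 to 0.039 (Cd74) and -0.20 to 0.095 (Ciita). For anti-CTLA4 they were -0.027 to 0.38 (H2-Aa), -0.12 to 0.43 (H2-Ab1), -0.068 to 0.38 (H2-Eb1), -0.15 to 0.17 (H2-DMa), -0.12 to 0.16 (H2-DMb1) and -0.16 to 0.33 (Cd74). Between the untreated groups they were -0.41 to 0.067 (H2-Ab1), -0.059 to 0.23 (H2-DMb1) and -0.24 to 0.027 (H2-Oa), and for cured mice -0.50 to 0.0085 (H2-Ab1). The log2 ratio of H2-Eb2 to H2-Eb1 for dual ICI on day 35 ranged from -0.91 to 0.057. That of Ciita to the 3 chain genes ranged from -0.30 to 0.018 for anti-PD1, from -0.16 to 0.19 for anti-CTLA4 and from -0.096 to 0.22 for uncured mice.

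The sample titles number the mice from 1 in each group, while the descriptions number the day 21 dual ICI libraries otherwise, so the block rests on the titles alone. The title numbers did not pair the mice, since the correlation of same-numbered mice ran from -0.647 to 0.696. With the replicate block, 209 genes were called on day 21, and 0 members and 4016 genes for cured mice. In the block fits without a call, H2-Eb2 was -0.088, Cd74 -0.030 and Ciita -0.021 for dual ICI on day 35, H2-Eb1 was 0.028 for anti-PD1 and Cd74 -0.021 for anti-CTLA4. Uncured and cured mice share no number, so no block could be fitted between them.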
